A study of Populus alba x Populus glandulosa with 9 samples.

Results

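The maturing stem of 84K poplar was compared with its young upper part. The middle group was taken from internodes 9 to 10 and the top group from internodes 2 to 3, with 3 libraries each, which are 6 of the 9 libraries of the study. The other 3 libraries came from internodes 14 to 15 (bottom) and entered only the estimate of the spread and a description at the end. The members were chosen by the stem position in the sample titles, and the position was matched to the columns by the library code in those titles. 84K is a hybrid poplar whose parents are Populus alba and Populus glandulosa. Every library came from wild-type plants of this cultivar, aged 6 months and about 200 cm tall, so stem position was the only difference the labels give. The labels are silent on separate plants behind the 3 libraries of a position, so a p-value here measures library-to-library spread and part of that may be technical.

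A poplar stem adds internodes at its tip, and internodes farther from the tip are older. Young internodes elongate and build thin primary walls. In older ones the vascular cambium, a ring of dividing cells, lays down wood on its inner side and phloem on its outer side, and wood cells thicken their walls with cellulose, hemicellulose and lignin before they die. An internode is a mixture of epidermis, cortex, phloem, cambium, xylem and pith, so a change in a transcript's level between internodes cannot be told apart from a change in the number of cells that hold it. Gene names are not paired with the identifiers in the files, so no gene is given a function and the stem label could not be checked against marker genes.

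The middle libraries held 54581666, 44403214 and 41434042 counts, and the top libraries 55547634, 75217046 and 56140632. Every top library was thus deeper than every middle library. Correlations of log2 CPM (counts scaled to library size) over the 52436 tested genes were 0.91 to 0.949 within a position and 0.844 to 0.875 between a middle and a top library. Middle library 2 stood apart from its group, at 0.91 and 0.911 with the other middle libraries, which were at 0.948 with each other. The numbers of calls, the share of rises by level and the shift over all genes are therefore also given without it.

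Between top and middle, a small share of weakly expressed genes fell and a larger share of strongly expressed genes did, while the share that rose varied less with level. In total 4301 genes were higher in the middle and 5478 lower, in edgeR's quasi-likelihood test at a Benjamini-Hochberg adjusted p under 0.05, out of 52436 tested. These are 8.2% and 10.4% of the genes tested, together 18.6%. Genes were put in 5 levels by their mean FPKM (the authors' read counts scaled to gene length and library total) over the 3 middle and 3 top libraries. Below 1 FPKM, 614 of 7525 genes rose (8.16%) and 210 fell (2.79%). The share of rises was thus near that of all genes, and the share of falls well below it. A fit of the middle and top libraries alone gave 339 rises and 144 falls of 6252 genes in this level. At 1 to 5 FPKM, 9.64% of 15230 genes rose and 7.35% fell. The balance turned at 5 to 20 FPKM, where 7.61% of 21293 genes rose and 10.6% fell. At 20 to 100 FPKM, 7.27% of 7390 genes rose and 21.5% fell. Among the 998 genes at 100 FPKM and over, 61 rose (6.11%) and 296 fell (29.7%).

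Rises thus made up 74.5% of the calls in the lowest level, 56.7%, 41.7% and 25.3% in the next levels, and 17.1% in the highest. The share of genes that rose lay between 6.11% and 9.64% in all levels, while the share that fell was higher at each level than at the one below. Without middle library 2, rises made up 70.9%, 59.6%, 47.1%, 28.6% and 15.7% of the calls, from the lowest to the highest level. In limma on log2(FPKM + 1), where the pseudocount shrinks changes of weak genes, rises were 57.8% of the calls below 1 FPKM (435 rises and 317 falls) and 18.2% at 100 FPKM and over. Among edgeR's called genes with at least a 2-fold fitted change, they made up 74.5%, 58.6%, 50.6%, 33.3% and 19.9%. The number of calls depended on single libraries. Leaving out middle library 2 reduced the calls to 3513 rises and 3909 falls. Without middle library 3, 2656 genes rose and 3202 fell, and without top libraries 2 or 3, 3630 and 3390 genes fell. With replicate number 3 dropped throughout, that is from all 3 positions, 207 rises and 115 falls were called, and rises made up 87.5%, 84.7%, 61.2%, 44.8% and 53.3% of the calls from the lowest to the highest level.

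**Figure D1:**
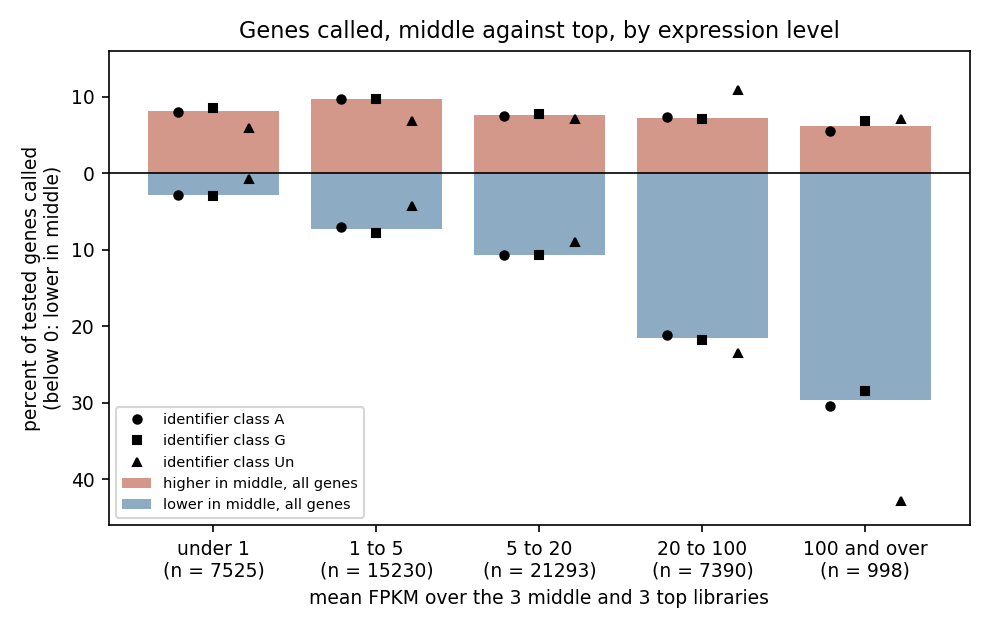
Percent of tested genes called higher (upward bars) or lower (downward bars) in the middle than in the top, for 5 levels of mean FPKM, with points for identifier classes A, G and Un. The downward bars grow from 2.79% to 29.7% with level, and the points of class A and class G lie close to the bars at each level.

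A shift with level was also present over all tested genes, called or not. The median log2 fold change of all tested genes, middle over top, was 0.35 below 1 FPKM and 0.04 at 1 to 5 FPKM. It was -0.02, -0.11 and -0.22 in the 3 levels above. Of the genes below 1 FPKM, 60.9% had a positive log2 fold change, against 40.3% of those at 100 FPKM and over. The filter on low counts ran over all 9 libraries, so weak genes that were also present in the bottom passed it more easily, and the values below 1 FPKM depend on it. With only the middle and top libraries in filter and fit the median below 1 FPKM was 0.29 and 59.5% of 6252 genes were positive, and with no filter it was 0.18 and 53.7% of 18157 genes. At 100 FPKM and over the medians were -0.21 and -0.22 in these fits. Without middle library 2 the median below 1 FPKM was 0.22 and 55.9% of 8280 genes were positive, and at 100 FPKM and over the median was -0.25. The median at 100 FPKM and over depended on the libraries used. With 1 library or 1 replicate number left out, it ranged from -0.28 (without middle library 3) to -0.09 (without replicate number 1). Without middle library 1 it was -0.13, and 44.1% of the genes in that level were positive. Over all levels the median of the reported fit was 0.01, and other scalings moved it to at most 0.04. The sign at 5 to 20 FPKM depended on the scaling and on the libraries used. There the median was 0.008 with library totals only, 0.004 with upper quartile scaling and 0.011 with DESeq2, though falls outnumbered rises in each. Under the reported scaling it ranged from -0.019 without replicate number 2 to 0.026 without replicate number 1. Falls outnumbered rises in this level with any single library left out. Rises outnumbered falls without replicate number 1 (943 against 880), number 2 (641 against 635) or number 3 (90 against 57).

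The size of the called changes followed a different order. Risen genes had a median log2 fold change of 3.13 below 1 FPKM, 1.74 at 1 to 5 FPKM, 0.99 at 5 to 20 FPKM and 1.06 at 20 to 100 FPKM. In the highest level the median was 1.42, with quartiles of 0.96 and 3.10. Fallen genes had medians of -2.96, -1.41, -0.82, -0.85 and -1.05 over the same levels. Precision varied with level as well. The median standard error of a log2 fold change was 0.79 below 1 FPKM, 0.18 at 5 to 20 FPKM and 0.23 at 100 FPKM and over, and 90% of the called changes exceeded 1.71, 0.51 and 0.67 in those levels. Weak genes were thus called mostly at fitted changes of severalfold, so the size of their called changes also reflects what the threshold let through. Over all tested genes below 1 FPKM the quartiles of the log2 fold change were -0.51 and 1.30. Replicate libraries showed the same gradient: the median coefficient of variation was 52% in the middle and 57.7% in the top below 1 FPKM, and 15.1% and 14.8% at 5 to 20 FPKM. Changes of at least 16-fold were called in 450 genes that rose and 213 that fell, of which 205 and 73 lay below 1 FPKM.

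**Figure D2:**
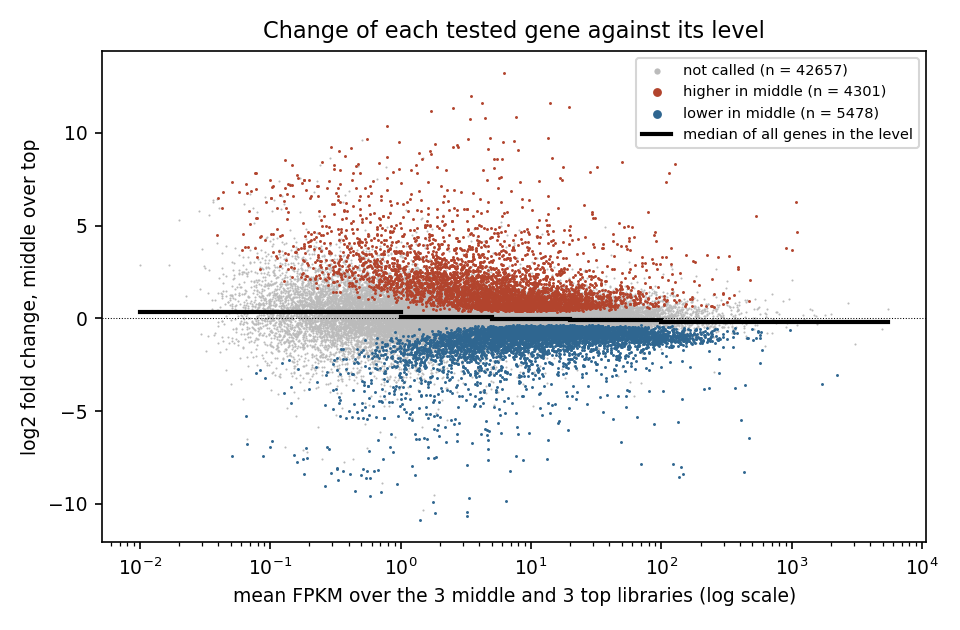
Fitted log2 fold change of each tested gene, middle over top, against its mean FPKM on a log scale, coloured by call. The black steps are the median of all tested genes in each level and lie at 0.35 in the lowest and at -0.22 in the highest level.

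The share of genes that fell was highest among abundant genes, and the called genes took unlike parts of the transcript pool. By number, the most falls lay at 5 to 20 FPKM, with 2267, against 296 at 100 FPKM and over. Of the summed FPKM of a library, the 4301 risen genes held 11%, 10% and 11.5% in the middle libraries, against 3.83%, 3.44% and 3.60% in the top libraries. The 5478 fallen genes held 14.1%, 11.6% and 12.7% in the middle libraries, against 24.6%, 27% and 25.9% in the top libraries. The groups did not overlap in either share. These genes were called from the same libraries, so the shares describe the calls and are no further test. The largest part of the fallen share came from genes at 20 to 100 FPKM, with 5.31% to 6.50% in the middle and 10.3% to 11.5% in the top, and from genes at 100 FPKM and over, with 3.98% to 4.83% in the middle and 9.69% to 10.6% in the top. The 614 risen genes below 1 FPKM held at most 0.08% of a library.

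**Figure D3:**
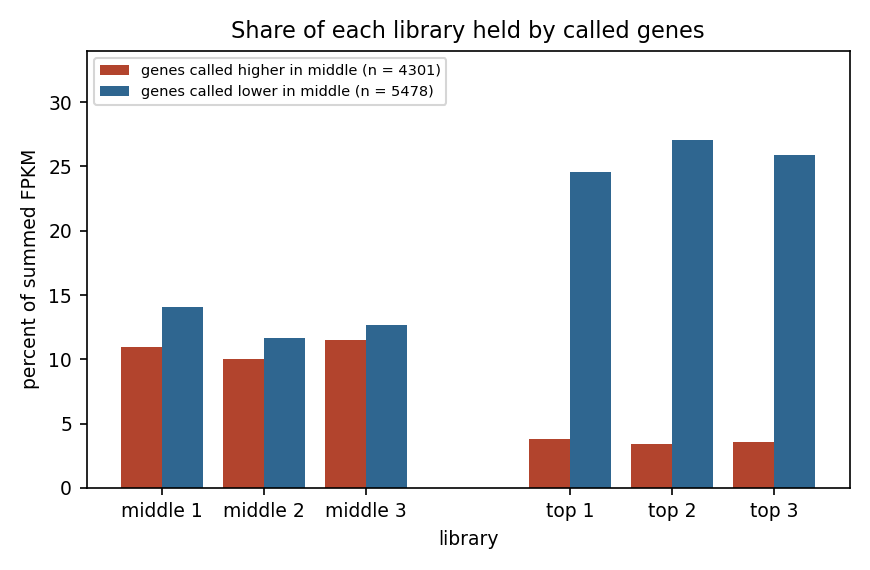
Percent of the summed FPKM of each middle and top library held by the genes called higher and by the genes called lower in the middle. Fallen genes lie at 11.6% to 14.1% in the middle libraries and at 24.6% to 27% in the top libraries.

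Fewer genes reached 100 FPKM in the middle libraries than in the top libraries, and more genes reached 1 FPKM. The middle libraries had 890, 948 and 897 genes at 100 FPKM or more, against 1137, 1004 and 1134 in the top libraries. The groups did not overlap, and the exact two-sided permutation test gave p = 0.1, the smallest that 3 libraries against 3 allow. This threshold was added after the data had been seen. At 1 FPKM or more there were 44112, 44671 and 44177 genes in the middle libraries, against 43382, 42744 and 43866 in the top libraries (exact two-sided permutation p = 0.1). Genes with any count averaged 56001 ± 780 in the middle and 56208 ± 510 in the top (SD, n = 3 each, exact permutation p = 0.8), so the groups overlapped in how many genes were detected. Detection depends on depth, and the top libraries were the deeper ones, so this was no comparison at equal depth.

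The lists of the most abundant genes overlapped in part. Of the 100 genes with the highest mean FPKM in the middle, 55 were also among the 100 highest in the top. The middle list held 18 genes that rose and 7 that fell, and 36 genes of the top list fell. For comparison, 6.11% of all genes at 100 FPKM and over rose and 29.7% fell. Of the 45 genes only in the middle list 18 were called as rises, and of the 45 only in the top list 29 were called as falls. Each list was chosen by the level in 1 position, which favours 1 direction in it. The part of the pool in the 100 most abundant genes of each library was 11.9 ± 0.99% in the middle and 11.4 ± 1.63% in the top (SD, n = 3 each), a difference within the spread (exact two-sided permutation p = 0.6).

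The 2 rises and the 2 falls with the largest difference in mean FPKM were taken among called genes with at least a 2-fold fitted change and no overlap between middle and top libraries. Of all tested genes, 36.5% had no such overlap, and 2903 rises and 2563 falls met all conditions. Pop_A09G059553 had 2283, 1582 and 2574 FPKM in the middle libraries, against 13.3, 36.2 and 33.5 FPKM in the top libraries. All middle libraries lay far above all top libraries, with middle library 2 the lowest of them. Its mean ranked 5 among all identifiers in the middle and 5684 in the top. The fitted log2 fold change was 6.24 with a standard error of 0.46, a 75.8-fold difference (edgeR adjusted p = 0.00071).

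Pop_G09G014168 came to a like level in the middle, with 2452, 1401 and 2514 FPKM, against 30.7, 76.8 and 143.4 FPKM in the top libraries. The top libraries differed severalfold among themselves, yet the highest of them was far below the lowest middle library. Its log2 fold change was 4.64 with a standard error of 0.56, or 24.9-fold (edgeR adjusted p = 0.0022). It ranked 6 in the middle and 1379 in the top.

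The largest fall was that of Pop_A04G029312, with 377.9, 600.9 and 458.2 FPKM in the middle libraries, against 5188, 4725 and 1950 FPKM in the top libraries. Top library 3 held less than the other top libraries but more than any middle library. The fitted log2 fold change was -3.07 with a standard error of 0.54, an 8.39-fold difference (edgeR adjusted p = 0.0066). The gene ranked 65 in the middle and 4 in the top. With replicate number 3 dropped throughout its log2 fold change was -3.31 and missed the threshold (edgeR adjusted p = 0.0781, over all alternatives 9.70e-09 to 0.0781).

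Pop_G04G066623 followed the same order of libraries, with 147.3, 472.7 and 199.6 FPKM in the middle, against 4128, 3688 and 1627 FPKM in the top. Middle library 2 was the highest middle library in both fallen genes and the lowest in both risen ones. The log2 fold change was -3.54 with a standard error of 0.79, or 11.6-fold (edgeR adjusted p = 0.0167). This call was lost without middle library 1 (edgeR adjusted p = 0.0574), without middle library 3 (edgeR adjusted p = 0.0642) and with replicate number 3 dropped throughout (edgeR adjusted p = 0.129), the highest over all alternatives, with 0.00046 the lowest. The log2 fold change was -3.17, -3.35 and -3.60 in these 3 fits. The 2 named risers shared the number 09 in their identifiers and the 2 named fallers the number 04, each with 1 gene of class A and 1 of class G. The gene lengths implied by counts and FPKM were 348 and 607 bases for the risen genes and 440 and 752 bases for the fallen genes, in class A and class G. Whether the files' A and G genes are counterparts of each other is not recorded.

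**Figure D4:**
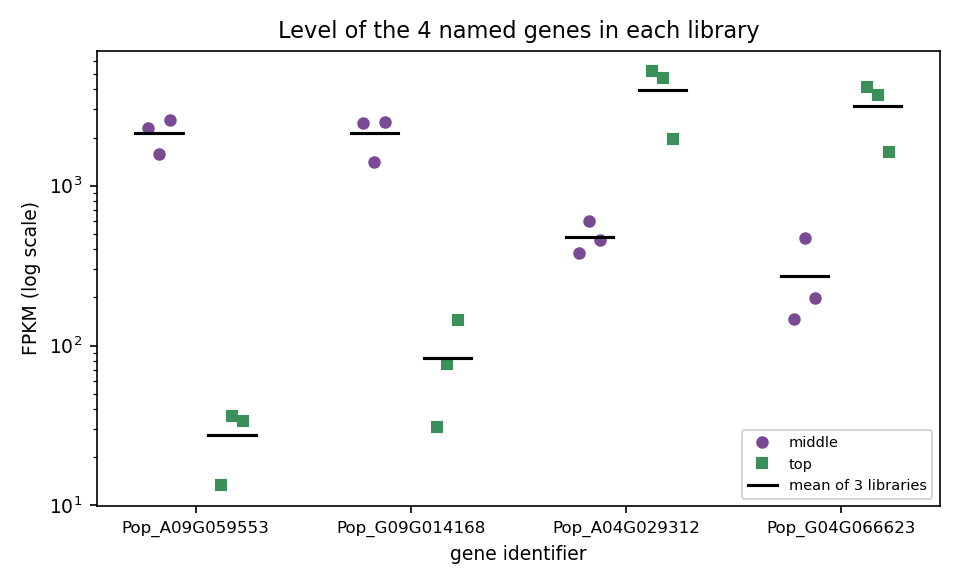
FPKM on a log scale of the 4 named genes in each middle library (circles) and top library (squares), with the mean of each group as a line. In each gene the middle and top libraries do not overlap, with means of 2146 against 27.7 FPKM in Pop_A09G059553 and of 479 against 3955 FPKM in Pop_A04G029312.

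The 10 largest rises by difference in mean FPKM had mean levels of 497 to 2146 FPKM in the middle, against 22 to 179 FPKM in the top. The 10 largest falls had 2.81 to 479 FPKM in the middle, against 486 to 3955 FPKM in the top. The rises included 6 genes of class A and 4 of class G, and the falls 5 of each. Together the 10 risen genes held 1.11% to 1.97% of the FPKM of a middle library, against 0.0753% to 0.137% of a top library. Together the 10 fallen genes held 0.166% to 0.222% of a middle library, against 1.01% to 2.06% of a top library.

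Genes found in only 1 of the 2 positions were about as many each way, and most were weak. The middle libraries were shallower, which makes a count of 0 easier to get there, so these numbers were not compared at equal depth. A count in all 3 middle libraries and 0 counts in all 3 top libraries was seen in 234 identifiers, at a median of 0.22 FPKM in the middle. The opposite pattern was seen in 228 identifiers, also at a median of 0.22 FPKM in the top. A count of 0 allows up to 0.0798 to 0.145 FPKM in a library for a gene of 1 kb (3 read pairs, counting error only), and 199 of the first kind and 201 of the second were below 1 FPKM in the position that held them. The filter on low counts, which also read the bottom libraries, kept 106 of the first kind and 45 of the second. No count of calls is drawn from these identifiers, since the choice fixes their direction. The bottom libraries, which played no part in choosing these genes, told the patterns apart. Of the 234 identifiers absent from the top, 143 had counts in all 3 bottom libraries. Of the 228 absent from the middle, 17 did, and 99 had 0 counts in all of them.

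Identifiers of class A and class G shifted alike, and few identifiers of class Un were expressed. The letters after the prefix are used only as classes, since the files do not say what they stand for. Of 38368 class A identifiers 25901 were tested (67.5%), of 38471 class G identifiers 25505 (66.3%) and of 8916 class Un identifiers 1030 (11.6%). Class A had 2104 rises and 2695 falls, class G 2124 and 2707, and class Un 73 and 76. As shares of tested genes, 8.12% rose and 10.4% fell in class A, 8.33% and 10.6% in class G, and 7.09% and 7.38% in class Un, against 8.2% and 10.4% over all genes. Together 18.5% of class A, 18.9% of class G and 14.5% of class Un were called. These shares were 10.9%, 11.1% and 8.22% without middle library 3, and in class A and class G 12.2% and 12.3% without top library 2 and 12.2% and 12.5% without top library 3. The median log2 fold change of called genes was 1.43 and -0.95 in class A and 1.47 and -0.96 in class G. In class Un it was 1.23 and -0.95.

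Class Un genes were also weaker, with a median of 3.74 FPKM over the 6 libraries, against 6.23 in class A and 6.13 in class G, and their median standard error was 0.32, against 0.25 in both other classes. Within levels, class Un was called less often below 5 FPKM. Below 1 FPKM, 6.59% of 273 class Un genes were called, against 10.8% in class A and 11.5% in class G. At 1 to 5 FPKM the shares were 11% of 308 class Un genes, against 16.7% in class A and 17.5% in class G. At 5 to 20 FPKM, 16% of 324 class Un genes were called, against 18.2% in class A and 18.4% in class G. At 20 to 100 FPKM the order turned, with 34.2% of 111 class Un genes, against 28.4% in class A and 28.8% in class G. At 100 FPKM and over, class Un had 14 tested genes, too few to place. The share of calls in class Un changed with the handling of weak genes, from 14.5% to 8.82% with no filter on low counts. Differences between classes were not tested, since genes of 1 library are not replicates.

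Over libraries, no shift between classes larger than the replicate spread was found. Class A held 49.5 ± 0.25% of the summed FPKM in the middle and 49.3 ± 0.36% in the top (SD, n = 3 each, exact two-sided permutation p = 0.5). Class G held 49.2 ± 0.21% in the middle and 49.4 ± 0.44% in the top (SD, n = 3 each, exact p = 0.7), a difference whose sign turned without top library 1. Class Un held 1.28 ± 0.046% in the middle and 1.34 ± 0.080% in the top (SD, n = 3 each, exact p = 0.3). Adjusted over the 3 classes, each p was 0.7, and 0.1 was the smallest unadjusted p possible.

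Class A and class G identifiers also carry a number from 1 to 19. Between 6.32% and 10.1% of tested genes rose over the 19 numbers in class A, and between 6.35% and 11.2% in class G. Falls took 8.66% to 11.6% in class A and 9.03% to 12% in class G. The number 11 had the largest share of rises in both classes, 10.1% of 970 genes in class A and 11.2% of 427 in class G. The number 13 had the lowest median log2 fold change of all tested genes in both, -0.05 in class A and -0.06 in class G, and number 11 the highest in both, 0.09 and 0.06. Across the 19 numbers, the median log2 fold change of class A and that of class G correlated with Pearson's r = 0.84 and Spearman's rho = 0.76. For the share of rises r was 0.38 and for the share of falls 0.24. These are descriptions over numbers that share the same libraries. Whether reads shared between near-identical copies contribute to them was not tested.

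Genes with consecutive serial numbers within the same class and number were more often called together. Over 37119 such pairs of tested genes, the second gene rose in 8.07% of all pairs and in 14.4% of those whose first gene rose. For falls the shares were 10.7% of all pairs and 13.7% of those whose first gene fell. What consecutive numbers mean for position or sequence is not stated in the files, and reads shared between similar neighbours were not tested.

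Gene length went with the direction of change among abundant genes. The length implied by count and FPKM was available for 51934 tested genes, and these were cut into 4 equal groups. In the shortest group (median 574 bases) 7% rose and 12.6% fell, and in the longest (median 2897 bases) 9.2% rose and 7.26% fell. Rises were thus 35.7% of the calls in the shortest group and 55.9% in the longest. Abundant genes were shorter: the median length was 726 bases at 100 FPKM and over, against 1608 bases at 5 to 20 FPKM. Length and level therefore overlap, but the difference was also seen within levels. At 20 to 100 FPKM, 26.8% of 2803 genes in the shortest group fell, and 9.91% of 959 genes in the longest. At 100 FPKM and over the shares were 32.6% of 625 genes and 11.5% of 26 genes. Below 5 FPKM the order was the opposite, with falls of 4.44% in the shortest and 8.57% in the longest group at 1 to 5 FPKM. Rises went the same way there, with 7.90% in the shortest and 9.47% in the longest group. The median standard error was 0.54 in the shortest and 0.22 in the longest group of that level. The part that this difference in precision had in the order was not tested.

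The length pattern was weaker in larger changes and depended on the top libraries. Among called genes with at least a 2-fold change, rises were 48.8% of the calls in the shortest group and 53.4% in the longest. With replicate number 3 dropped throughout they were 67.1% and 68.2% of far fewer calls. The longest group held 14.4%, 14.6% and 14.4% of the summed FPKM in the middle libraries, against 11.9%, 14.4% and 13.2% in the top libraries (exact two-sided permutation p = 0.1). The shortest group held 42%, 41.5% and 43.3% in the middle libraries, against 45.5%, 41.7% and 43.8% in the top libraries. The positions overlapped in that group (exact two-sided permutation p = 0.3). In both groups top library 2 lay close to the middle libraries and top library 1 farthest from them. The part that RNA quality or fragment selection had in this was not tested.

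**Figure D5:**
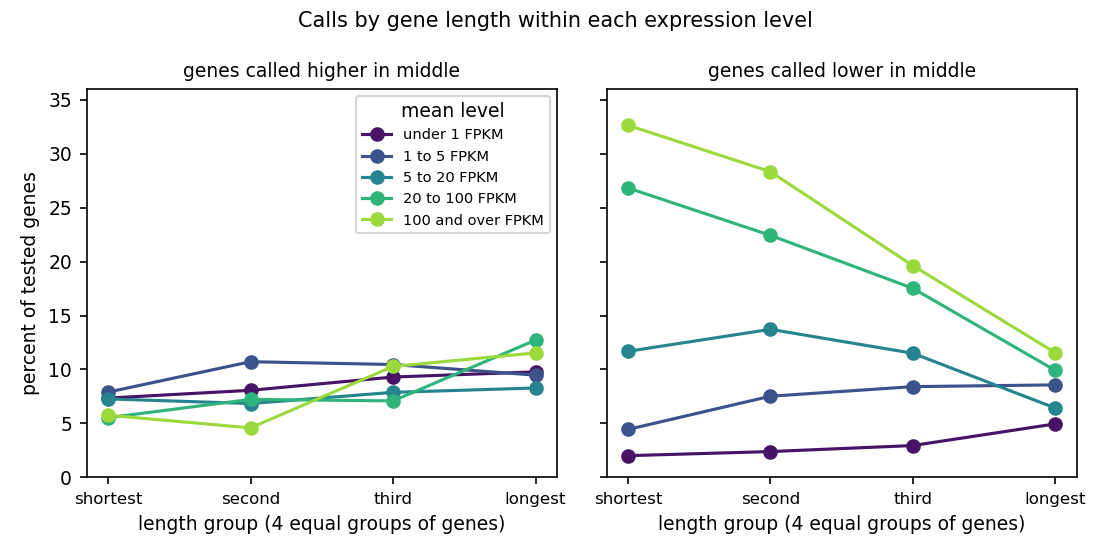
Percent of tested genes called higher (left) or lower (right) in the middle, by group of implied gene length (4 equal groups), with 1 line for each level of mean FPKM. At 20 FPKM and over the share of falls drops with length, from 26.8% to 9.91% at 20 to 100 FPKM. Below 5 FPKM it rises with length, where longer genes also had smaller standard errors.

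The libraries nearest to the other position were not evenly spread. Among the risen genes, middle library 2 was the lowest middle library in 49.4%, and among the fallen genes middle library 1 was the highest middle library in 63.3%. Top library 1 was the top library nearest to the middle in 45.6% of the risen and 40.5% of the fallen genes. The bottom libraries lay beside the middle ones for these genes. The median level of the risen genes was 7.07 to 7.63 FPKM over the middle libraries, 2.27 to 2.75 over the top libraries and 7.50 to 8.41 over the bottom libraries. For the fallen genes it was 7.69 to 9.24 FPKM in the middle, 15.7 to 15.9 in the top and 8.31 to 9.28 in the bottom. The 61 risen genes at 100 FPKM and over had medians of 236 to 284 FPKM in the middle libraries, 70.8 to 86.6 in the top and 256 to 312 in the bottom. Pop_A09G059553 was at 2536, 2362 and 3260 FPKM and Pop_G09G014168 at 2172, 2406 and 3075 FPKM in the bottom libraries. Pop_A04G029312 had 1132, 339.9 and 544.6 FPKM there, and Pop_G04G066623 had 856.8, 150.9 and 204.3 FPKM. Over all tested genes, correlations of log2 CPM with the bottom libraries were 0.922 to 0.949 for middle libraries 1 and 3. For middle library 2 they were 0.865 to 0.879 with the bottom and 0.862 to 0.87 with the top libraries. The middle libraries were thus not alike in their closeness to the bottom.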

How the data were processed

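Stem poly(A) RNA was sequenced from both fragment ends, per the labels' protocols. Per the submitters' processing notes, Trimmomatic 0.36 (a read trimmer) and HISAT2 (an aligner) were used. The genome build, annotation, strand setting and counting program were not given in the sources used here. Whole-number read counts for 85755 identifiers were deposited by the authors, all of them even (0 odd entries), as counting both mates of a pair would give. The authors also deposited FPKM values for the same identifiers and libraries. Gene length was taken as count over FPKM and library total, for entries of at least 20 counts.

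Counts were tested with edgeR 4.0.16 in R 4.3.3: filterByExpr (minimum count 10, minimum total 15), TMM scaling and a single quasi-likelihood fit over all 9 libraries with position as the factor. The contrast was middle minus top, and 52436 genes were tested. Values per library were compared by exact permutation in scipy 1.17.1. Same-numbered middle and top libraries deviated together from their group means (r = 0.256, 0.114 and 0.104), and other pairs gave r of -0.18 to 0.0397, which is a hint of pairing from the data and not the labels. The fit reported has no block for it, and the permutation tests are unpaired (3 pairs could not go below p = 0.25). Genes were named by the largest difference in mean FPKM, limited to 2 rises and 2 falls because identifiers are unpaired with names. Members, levels and rules were chosen with earlier results of these data known. Alternatives were DESeq2 1.42.0, limma 3.58.1 on log2(FPKM + 1) and log2(FPKM + 0.1), other scalings and filters, a replicate block, and omitted libraries.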

Additional observations from a re-analysis of the deposited data

How the results depend on the processing

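DESeq2 called 7087 rises, 22.3% of class Un genes and 25.8% of calls as rises at 100 FPKM and over. A fit of the middle and top libraries alone called 2732 rises, and no filter on low counts gave 8.82% of class Un called. With the replicate block 3951 genes rose and 4851 fell, of which 3533 and 4565 were calls without the block, and none of the 4 named genes lost its call. No gene called in the report was called in the opposite direction by any of these alternatives. With 1 library or 1 replicate number left out, 207 to 4494 genes rose and 115 to 4693 fell. Calls then made up 0.64% to 17.1% of class A, 0.598% to 17.5% of class G and 0.289% to 13.9% of class Un. Rises made up 70.9% to 87.5%, 57.4% to 84.7%, 43.6% to 61.2%, 20.03% to 44.8% and 12.3% to 53.3% of calls from the lowest to the highest level, and 32.1% to 67.1% and 52.6% to 68.2% in the shortest and longest genes. The extremes towards more rises came from leaving out replicate number 3. The cause was not tested.

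The difference in genes with any count was -207 (middle minus top, exact p = 0.8), against 989 at 1 FPKM or more. With single libraries left out, that at 1 FPKM ranged from 696 to 1257 and that at 100 FPKM from -224 to -157. The difference in the pool share of the 100 most abundant genes ranged from -0.192 to 1.40 percentage points, was -0.599 for the 1000 most abundant (exact p = 0.7) and -0.025 on counts (exact p = 1). For class shares it ranged from 0.0271 to 0.384 in class A, -0.343 to 0.0815 in class G and -0.109 to -0.0369 in class Un. The FPKM thresholds at 100, the lengths and the restriction to 2-fold changes were added after seeing the data.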
